A study of Phycomyces blakesleeanus with 24 samples.

Results

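Mycelium of the strain ΔL51 of Phycomyces blakesleeanus was compared between libraries labelled light and libraries labelled dark. The comparison was taken whole from 1 of the authors' 4 deposited tables, which lists 14242 genes, and it rests on 6 of the 24 libraries of the series. Both groups carried the mutation, which the labels describe only as a photoreceptors mutant without naming an allele, and as labelled they differed in light alone. ΔL51 mycelium in light had 3 libraries and ΔL51 mycelium in darkness had 3, labelled as biological replicates, and the study set none of these aside. Cultures were grown on PDA (potato dextrose agar), and RNA, taken up in Trizol, went through amplification with the MessageAmp II kit. No source used here gives the intensity, colour or duration of the light. The wild type mycelium set beside it below had 3 light libraries and 2 dark libraries after the study set 1 aside, and the ΔL51 sporangiophores 3 light and 2 dark after it set 1 aside. Wild type sporangiophores, used in a few places, had 2 light and 2 dark libraries after the study set 1 aside in each group.

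Phycomyces is a filamentous fungus of the Mucoromycota known for the phototropism of its giant sporangiophores and for the beta-carotene its mycelium makes, which blue light raises in wild type cultures. Blue light is sensed by a complex of a White Collar 1 protein, which binds a flavin, and a White Collar 2 protein, and the complex acts as a transcription factor. The genes madA and madB encode members of these families, and strains mutated in both respond poorly to light; L51 is known from other work as such a double mutant.

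Each value below is the authors' own fold change of light over dark for a gene, on the log2 scale, from their edgeR model. A positive value means a higher level in light if the title of the table gives the direction, since its header is silent on it. If the title were turned round, every direction given for ΔL51 mycelium would turn with it. Genes are called at an edgeR FDR (p-values adjusted by Benjamini-Hochberg over the whole table) under 0.05. Fold and likelihood ratio together gave an approximate 95% interval for each gene with a fold other than 0. Values per library, and with them the depth, the overlap of groups and the number of libraries showing each direction, were not analysed here. The likelihood ratio p-values judge each fold against the spread that the model estimated between the libraries of the fit. The log2 CPM (reads scaled to library size, on a log2 scale) in the table is an average over the libraries of the fit, and which these were is not stated in the sources used here. A fold change of exactly 0 stands for 2793 genes in the authors' deposited table, some with a log2 CPM of up to 6.72. Mycelium markers could not be checked without levels per library, and the genotype could not be checked from folds of light over dark.

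In ΔL51 mycelium, few genes passed the test and they moved in both directions. In the authors' deposited table, 159 of the 14242 genes were called (1.12%), 77 of them higher in light (0.541%) and 82 lower (0.576%), so that 48.4% of the calls were rises. Unadjusted edgeR p-values under 0.05 were found for 1327 genes, of which 792 had positive and 535 negative folds. The median of the folds other than 0 was 0.08. When the folds were centred on that median, 55 genes were called higher and 100 lower, so that rises made up 35.5% of the calls. Under an F reference with 12 degrees of freedom in place of the chi-square, 10 genes stayed called and none of them has a symbol, so the calls of all symbol-bearing genes described below ended there.

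The called rises reached further than the called falls. In the authors' deposited table the called rises had a median log2 fold change of 2.32 (1.22 to 9.04), and 16 of the 77 were at least 4. The called falls had a median of -1.77 (-5.69 to -1.20), and 1 of the 82 was at least 4 in size. Approximate standard errors had a median of 0.61 among the rises and 0.40 among the falls, on the log2 scale. Median log2 CPM in the authors' deposited table was 5.51 for the rises, 6.13 for the falls and 4.42 for all genes. At the FDR limit the closest genes inside were PHYBLDRAFT_21989 (log2 fold change 3.48) and PHYBLDRAFT_105042 (-1.21), both at an FDR of 0.0498 in the authors' deposited table. Just outside were PHYBLDRAFT_165096 (1.82, FDR 0.0501) and PHYBLDRAFT_77721 (-1.13, FDR 0.0505) in the authors' deposited table.

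Genes called lower were longer than genes called higher in the Phybl2 annotation. Of the 82 falls 3 (3.66%) had a gene span under 1000 bases, against 22 of the 76 rises with a known span (28.9%) and 30.05% of all genes. Within the middle range of log2 CPM of the falls, spans under 1000 bases were found for 5% of the 40 falls, 24.2% of the 33 rises and 14.0% of all 2694 genes. The part of gene length in the folds was not tested.

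**Figure D1:**
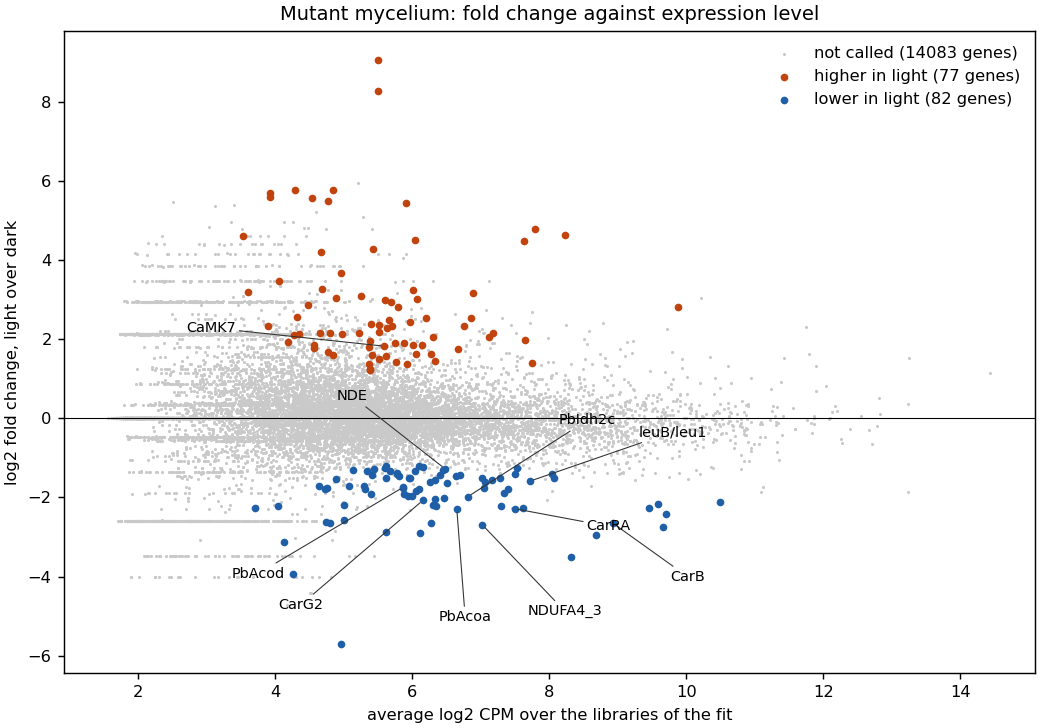
Log2 fold change of light over dark (vertical axis) against the average log2 CPM over the libraries of the fit (horizontal axis) for the 14242 genes of ΔL51 mycelium in the authors' deposited table. Orange points are the 77 genes called higher in light, blue points the 82 called lower, and grey points the others. Lines tie the 10 called genes with a symbol to their points, and 9 of those lie below 0. Grey points at low log2 CPM line up on repeated folds.

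Light sensing genes were not called in ΔL51 mycelium. The edgeR test of the authors called 0 of the 6, which is near the 1.12% of all genes called in ΔL51 mycelium. An unadjusted edgeR p under 0.05 was found for 1 of them, and for 9.32% of all genes. The list median of log2 fold change was 0.16, beside 0 over all genes. In wild type mycelium the list median was 3.29 and 5 of the 6 were called higher, where 9.86% of all genes were called higher and 4.18% lower. WcoA, a White Collar 1 homolog, had a log2 fold change of 0.58 (approximate 95% interval -0.47 to 1.62) in ΔL51 mycelium and 5.28 in wild type mycelium in the authors' deposited tables. WctD, a White Collar 2 homolog, had 2.76 (0.55 to 4.97, FDR 0.309) in ΔL51 mycelium and 6.61 in wild type mycelium in the authors' deposited tables. WctB, another White Collar 2 homolog, had -2.60 (-6.40 to 1.21) in ΔL51 mycelium and 8.45 in wild type mycelium in the authors' deposited tables.

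The difference between strains was tested for each gene as ΔL51 minus wild type log2 fold change, each fold being taken within its own table. The test used a normal approximation with Benjamini-Hochberg adjustment over 10462 genes, and the fits behind both tables differ. It found 457 genes (4.37%) with a higher fold and 1055 (10.1%) with a lower fold in ΔL51 mycelium. If the direction of the ΔL51 table were turned round, 195 genes would have a higher and 691 a lower fold in ΔL51 mycelium. Of the light sensing genes 3 (50%) were among those lower in ΔL51. For WcoA the difference was -4.70 (approximate 95% interval -5.96 to -3.44, adjusted p = 1.3e-10 by the normal approximation). WctB differed by -11.05 (-15.5 to -6.63), at a log2 CPM of 3.67 in the authors' deposited table. Its ΔL51 fold of -2.60 is repeated at other genes of low level, such as PHYBLDRAFT_18318 (log2 CPM 2.58) and PHYBLDRAFT_58548 (3.40). The size of the WctB difference is therefore uncertain. WctD differed by -3.85 (-6.30 to -1.39, adjusted p = 0.0211 by the normal approximation). The WctD difference was not past the limit with a t reference of 12 degrees of freedom.

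MadA, MadB and WctC had intervals of the ΔL51 fold that span 0. MadA, a White Collar 1 homolog, had a log2 fold change of -0.31 (-1.20 to 0.58) in ΔL51 mycelium and -0.63 in wild type mycelium in the authors' deposited tables. MadB, a White Collar 2 homolog, had 0.21 (-0.87 to 1.29) in ΔL51 mycelium and 0.96 in wild type mycelium there. WctC, of the same family, had 0.10 (-0.81 to 1.01) in ΔL51 mycelium and 1.30 in wild type mycelium in the authors' deposited tables. The differences between strains were 0.33 (-0.74 to 1.40) for MadA, -0.75 (-1.96 to 0.46) for MadB and -1.19 (-2.47 to 0.08) for WctC, none past the limit. These intervals leave room for differences of over 1 on the log2 scale in each of the 3 genes.

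Some carotene genes fell in light in ΔL51 mycelium. Of 8 measured genes of carotene and isoprenoid synthesis 3 (37.5%) were called lower, where 0.576% of all genes were, and 0 higher. An unadjusted edgeR p under 0.05 was found for 4, all with negative folds, as was so for 3.76% of all genes. The list median was -0.71, beside 0 over all genes. CarB encodes phytoene dehydrogenase, which turns phytoene into lycopene, and its log2 fold change of -2.65 is a level 6.26-fold lower in light (approximate 95% interval -3.56 to -1.73) in the authors' deposited table. CarRA encodes the lycopene cyclase and phytoene synthase, and it was 4.87-fold lower in light (-3.17 to -1.40) in the authors' deposited table. Both genes lie next to each other in Phybl2, and theirs was 1 of 3 pairs of adjacent called genes.

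CarB and CarRA had lower folds in ΔL51 than in wild type mycelium, and neither was called in wild type mycelium. CarB had a log2 fold change of -0.13 and CarRA 0.38 in wild type mycelium in the authors' deposited table, so that ΔL51 minus wild type was -2.51 (-3.71 to -1.32, adjusted p = 0.00105 by the normal approximation) for CarB. For CarRA it was -2.66 (-3.88 to -1.45, adjusted p = 5.8e-04 by the normal approximation). The third gene called lower, CarG2, is by its symbol related to carG, a geranylgeranyl pyrophosphate synthase gene of Mucor circinelloides. CarG2 fell in both strains, by 2.07 in ΔL51 mycelium and by 3.86 in wild type mycelium in the authors' deposited tables. Its difference of 1.79 (0.51 to 3.06, adjusted p = 0.0448 by the normal approximation) was not past the limit with a t reference of 12 degrees of freedom.

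The other carotene and isoprenoid genes did not pass the test in ΔL51 mycelium. hmgR, the HMG-CoA reductase gene at the head of the mevalonate pathway, had -1.04 (-1.80 to -0.28, FDR 0.225) in the authors' deposited table. ippI/dmappS, for an isopentenyl pyrophosphate isomerase, had -0.38, carRA2 -0.26 and carRA3 -0.32 in ΔL51 mycelium in the authors' deposited table. carC had 0.26 (-0.59 to 1.12) in ΔL51 mycelium and rose by 2.45 in wild type mycelium in the authors' deposited tables. Its difference of -2.19 (-3.41 to -0.97, adjusted p = 0.00666 by the normal approximation) went past the limit, but not with the t reference.

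**Figure D2:**
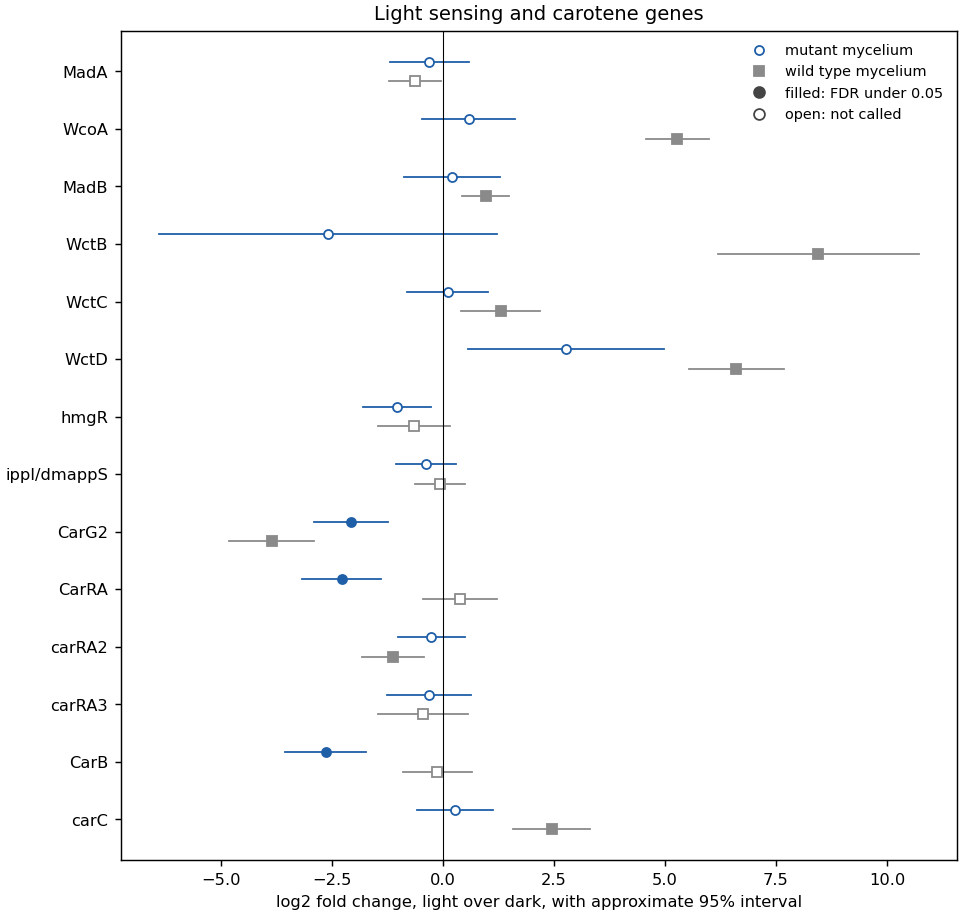
Log2 fold change of light over dark (horizontal axis) with approximate 95% intervals for the 6 light sensing and 8 carotene and isoprenoid genes in ΔL51 mycelium (blue circles) and wild type mycelium (grey squares), from the authors' deposited tables. Filled points have an FDR under 0.05. Filled circles for ΔL51 mycelium are at CarG2, CarRA and CarB alone, and the intervals of the strains lie apart for WcoA, WctB, WctD, CarRA, CarB and carC.

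A few genes of the tricarboxylic acid cycle fell in light in ΔL51 mycelium. Of 24 measured genes, pyruvate dehydrogenase included, 3 (12.5%) were called lower, against 0.576% of all genes, and 0 higher. An unadjusted edgeR p under 0.05 was found for 5, all with negative folds, as was so for 3.76% of all genes. Across the list 19 folds were negative and 5 positive, while over all genes 5205 were negative and 6244 positive. The list median was -0.51, beside 0 over all genes and 0.48 for the same list in wild type mycelium. Between strains 6 of the 24 (25%) differed, all with a lower fold in ΔL51, against 10.1% of all genes tested. With the t reference of 12 degrees of freedom 3 did: PbAcoa, PbAcod and PbFumHa.

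The called genes encode enzymes of neighbouring steps, the isomerisation of citrate and the oxidation of isocitrate. PbAcoa, an aconitase gene by its symbol, was 4.89-fold lower in light (log2 fold change -2.29, approximate 95% interval -3.04 to -1.54, FDR 3.2e-06) in ΔL51 mycelium in the authors' deposited table. In wild type mycelium it rose by 1.99 in the authors' deposited table, a difference of -4.29 (-5.30 to -3.28). PbAcod, another aconitase gene, was 3.35-fold lower in light (-2.40 to -1.09, FDR 1.3e-04) in ΔL51 mycelium and rose by 1.97 in wild type mycelium in the authors' deposited tables. The other 2 aconitase genes were not called in ΔL51 mycelium, with -0.46 for PbAcob and 0.85 for PbAcoc in the authors' deposited table.

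PbIdh2c, an isocitrate dehydrogenase gene by its symbol, was 3.94-fold lower in light (-2.80 to -1.16, FDR 7.5e-04) in ΔL51 mycelium in the authors' deposited table. It had -0.31 in wild type mycelium, and its difference of -1.67 was not past the limit after centring of the folds or with the t reference. Its relatives PbIdha (-1.39, FDR 0.146) and PbIdhb (-1.66, FDR 0.393) had negative folds in the authors' deposited table, and PbIdh2a had 0.58. PbIdh1b had -0.27, PbIdh2b -0.006 and PbIdh1a -0.003 in ΔL51 mycelium there, and none of these relatives was called. PbFumHa, a fumarase gene by its symbol, had -0.70 in ΔL51 mycelium and rose by 2.13 in wild type mycelium in the authors' deposited tables. That difference was -2.83 (adjusted p = 3.1e-05 by the normal approximation). The remaining differing genes of the list, both lost with the t reference, were PbSucCoASa (-1.82) and PbIdh1b (-1.41), neither called in ΔL51 mycelium and both called higher in wild type mycelium.

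Leucine synthesis genes had negative folds throughout. leuB/leu1, a leucine synthesis gene by its symbol, was 3.01-fold lower in light (log2 fold change -1.59, -2.40 to -0.78, FDR 0.0196) in ΔL51 mycelium and rose by 1.56 in wild type mycelium in the authors' deposited tables. The difference was -3.15 (adjusted p = 9.7e-08 by the normal approximation). leuC had -0.87 and leuA -0.71 in ΔL51 mycelium in the authors' deposited table, neither called. The median of the 3 genes was -0.87 in ΔL51 mycelium and 0.57 in wild type mycelium. Copies of duplicated genes may share reads, and how the authors counted such reads is not given in the sources used here, so folds of single copies are uncertain.

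**Figure D3:**
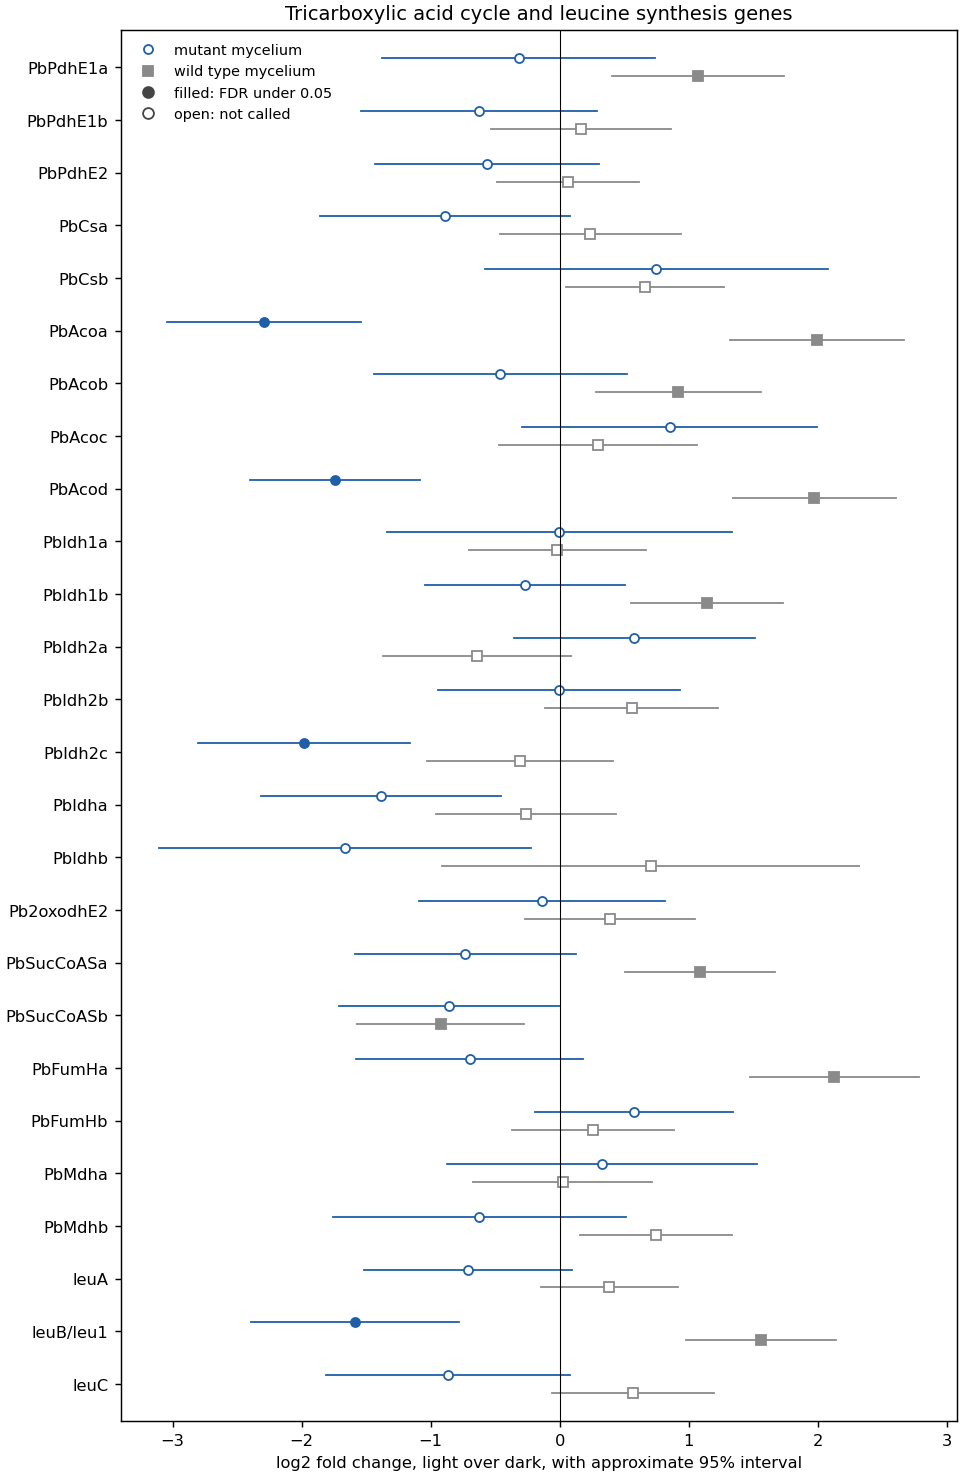
Log2 fold change of light over dark (horizontal axis) with approximate 95% intervals for tricarboxylic acid cycle and 3 leucine synthesis genes, from the authors' deposited tables. Of the 24 measured tricarboxylic acid cycle genes all but PbPdhPCa are shown. Blue circles are ΔL51 mycelium and grey squares wild type mycelium. Filled points have an FDR under 0.05. PbAcoa, PbAcod and leuB/leu1 are filled in both strains, left of 0 in ΔL51 and right of 0 in wild type, while PbIdh2c is filled in ΔL51 alone.

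Of 92 respiratory genes 1 (1.09%) was called, a share near the 1.12% of all genes. NDUFA4_3, by its symbol a subunit of the respiratory chain, was 6.46-fold lower in light (log2 fold change -2.69, -3.79 to -1.59, FDR 6.4e-04) in ΔL51 mycelium in the authors' deposited table. It had -0.12 in wild type mycelium there, and the difference of -2.57 was not past the limit with the t reference. Of its copies NDUFA4_2 had -0.48 in ΔL51 mycelium, and NDUFA4 was listed at 0 in the authors' deposited table. Across the list 25 folds were positive and 66 negative, while over all genes 6244 were positive and 5205 negative. The list median was -0.24, beside -0.35 in wild type mycelium. INH1, by its symbol an inhibitor of the mitochondrial ATP synthase, had 2.58 (1.06 to 4.11, FDR 0.0687) in ΔL51 mycelium and -0.72 in wild type mycelium in the authors' deposited tables. Of the 91 with a tested difference between strains 7 (7.69%) had a higher fold and 5 (5.49%) a lower fold in ΔL51, against 4.37% and 10.1% of all genes, and 1 differed with the t reference.

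Of 9 genes of the alternative oxidase and the alternative NADH dehydrogenases 1 (11.1%) was called, against 0.576% of all genes called lower. NDE, an external NADH dehydrogenase by its symbol, was 2.42-fold lower in light (log2 fold change -1.28, -1.94 to -0.61, FDR 0.0235) in ΔL51 mycelium and had -0.29 in wild type mycelium in the authors' deposited tables. AOX, the alternative oxidase, had 0.69 (-0.96 to 2.35) in ΔL51 mycelium in the authors' deposited table. NDE2 differed between strains by -2.10, though not with the t reference, with -0.58 in ΔL51 mycelium and 1.52 in wild type mycelium in the authors' deposited tables. The list median was -0.15 in ΔL51 mycelium and 0.47 in wild type mycelium.

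Among signalling genes a single kinase rose. CaMK7, of the calmodulin-dependent kinases by its symbol, was 3.53-fold higher in light (log2 fold change 1.82, 0.99 to 2.65, FDR 0.00438) in ΔL51 mycelium and rose by 3.93 in wild type mycelium in the authors' deposited tables. It was the only one of the 10 called genes with a symbol that was higher in light. Its difference of -2.11 (-3.37 to -0.85, adjusted p = 0.0129 by the normal approximation) was not past the limit with the t reference. CaMK10 of the same family had 1.99 (0.75 to 3.23, FDR 0.0964) in ΔL51 mycelium in the authors' deposited table. Of 36 kinases 1 (2.78%) was called higher, against 0.541% of all genes, and 0 lower (4 at an unadjusted edgeR p under 0.05, all with positive folds, as was so for 5.56% of all genes). The kinase median was 0.09 in ΔL51 mycelium and 0.72 in wild type mycelium. Of the 35 kinases with a tested difference between strains 4 (11.4%) had a lower fold in ΔL51, near the 10.1% of all genes tested. Besides CaMK7 these were PPK5, PPK2 and PPK3, with differences of -3.59, -5.84 and -4.82. PPK3 alone of these kinases was past the limit with the t reference.

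None of the G protein subunits passed in ΔL51 mycelium: edgeR called 0 of 11, where 1.12% of all genes were called, while 2 had an unadjusted p under 0.05. Gpb3, a beta subunit by its symbol, had 1.48 (0.35 to 2.61, FDR 0.261) in ΔL51 mycelium and 6.73 in wild type mycelium in the authors' deposited tables, a difference of -5.25. Gpb1 and Gpa1B went the other way between strains, by 3.87 and 2.39, and none of these 3 differences was past the limit with the t reference. Gpb1 had 0.79 in ΔL51 mycelium and -3.08 in wild type mycelium, and Gpa1B 0.57 in ΔL51 mycelium and -1.83 in wild type mycelium, in the authors' deposited tables. The edgeR test also called 0 of 8 measured genes of two-component signalling (3 at an unadjusted p under 0.05), 0 of 4 regulatory subunits of the cAMP-dependent kinase (1 so), 0 of 2 RNA silencing genes (1 so) and 0 of 1 calmodulin gene (0 so). The background for these unadjusted counts, those of the G protein subunits included, is 9.32% of all genes. In the order of the lists just named the medians were 0.39, 0.18, 1.00 and 0.43 in ΔL51 mycelium. Over all lists 1 of 204 genes was called higher and 9 lower, where 0.541% of all genes were called higher and 0.576% lower.

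Most called genes have no symbol in the Phybl2 annotation and are named by locus tag, with no function stated. The largest rises among those with a log2 CPM of no less than the median of the table were PHYBLDRAFT_124492 (log2 fold change 9.04, approximate 95% interval 6.54 to 11.5) and PHYBLDRAFT_157726 (8.26, 6.29 to 10.2) in the authors' deposited table. Next came PHYBLDRAFT_72256 (5.76, 2.75 to 8.77, FDR 0.0249), PHYBLDRAFT_139728 (5.56, FDR 0.0373) and PHYBLDRAFT_71323 (5.48, FDR 0.0469) in the authors' deposited table. These 3 combine a high fold with a wide interval, and their folds in wild type mycelium were -0.24, -0.25 and -1.70 in the authors' deposited table, none called.

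The remaining 5 large rises were PHYBLDRAFT_124049 (5.43, FDR 2.7e-09), PHYBLDRAFT_119862 (4.78, FDR 8.9e-11), PHYBLDRAFT_30672 (4.63, FDR 1.5e-09), PHYBLDRAFT_157963 (4.50, FDR 4.7e-09) and PHYBLDRAFT_188804 (4.47, FDR 2.3e-09) in the authors' deposited table. All 5 were called higher in wild type mycelium too, with log2 fold changes of 2.30, 3.87, 2.61, 2.24 and 4.99 in the authors' deposited table, in the same gene order. Together with PHYBLDRAFT_124492, PHYBLDRAFT_157726 and PHYBLDRAFT_180993 (4.27) they are the 8 rises with an FDR under 1e-08, a limit chosen after the values were seen. Of these 8, 7 were called higher in wild type mycelium, where 9.86% of all genes were. In ΔL51 sporangiophores 6 of the 8 were called lower and 0 higher, where 12.3% of all genes were called lower and 3.31% higher.

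Among the falls under the same limit on log2 CPM PHYBLDRAFT_179633 had the largest, -5.69 (-8.43 to -2.95, FDR 0.0104), followed by PHYBLDRAFT_108956 with -3.51 (-4.45 to -2.57, FDR 7.8e-10) in the authors' deposited table. PHYBLDRAFT_115329, at a log2 CPM under that limit, fell by 3.92 in the authors' deposited table. PHYBLDRAFT_179633 and PHYBLDRAFT_108956 were called higher in wild type mycelium, with 5.98 and 2.21 in the authors' deposited table. PHYBLDRAFT_189260 (-2.90) and PHYBLDRAFT_120982 (-2.58) were likewise called lower in ΔL51 mycelium and higher in wild type mycelium, with 2.54 and 3.26 in wild type mycelium in the authors' deposited tables. PHYBLDRAFT_125613 (-2.87) and PHYBLDRAFT_119836 (-2.63) were called lower in wild type mycelium as well, with -2.06 and -1.41 there. PHYBLDRAFT_153108 (-2.95), PHYBLDRAFT_176851 (-2.76), PHYBLDRAFT_132711 (-2.65) and PHYBLDRAFT_78835 (-2.26) were not called in wild type mycelium in the authors' deposited table. PHYBLDRAFT_108956 and PHYBLDRAFT_121806 (-2.22) were the 2 falls among the 10 genes that stayed called with the F reference.

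**Figure D4:**
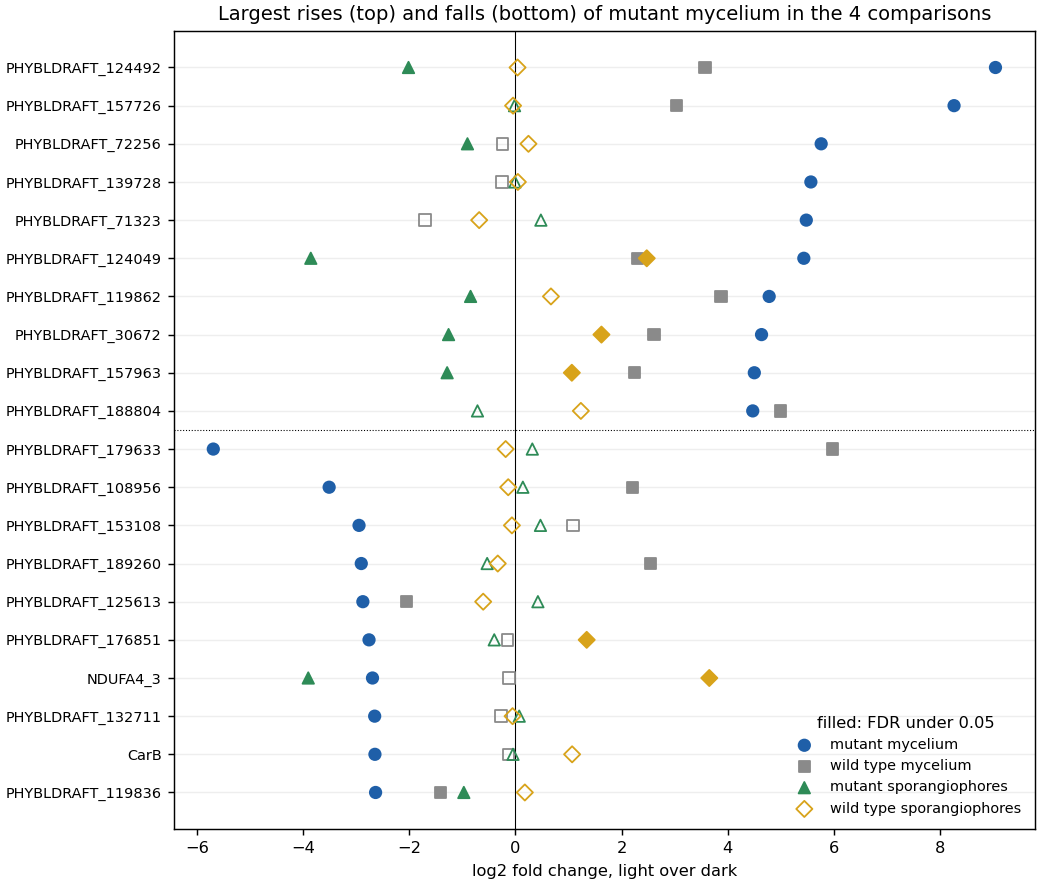
Log2 fold change of light over dark (horizontal axis) for the 10 largest rises (top) and 10 largest falls (bottom) of ΔL51 mycelium among called genes with a log2 CPM of no less than the median of the table. Blue circles are ΔL51 mycelium, grey squares wild type mycelium, green triangles ΔL51 sporangiophores and yellow diamonds wild type sporangiophores, from the authors' deposited tables, and filled symbols have an FDR under 0.05. Green triangles lie left of 0 for most of the rises, and grey squares of PHYBLDRAFT_179633, PHYBLDRAFT_108956 and PHYBLDRAFT_189260 lie right of 0.

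The called genes were then looked up in wild type mycelium, whose libraries are not shared with ΔL51 mycelium. Of the 82 genes lower in ΔL51 mycelium 29 (35.4%) were called higher in wild type mycelium and 7 (8.54%) lower. Of the 77 genes higher in ΔL51 mycelium 22 (28.6%) were called higher in wild type mycelium and 3 (3.90%) lower. The backgrounds for those shares are the 9.86% and 4.18% of all genes given above. If the direction of the ΔL51 table were turned round, the 32 genes called with opposite signs and the 29 called with the same sign would change places. The difference between strains would then be 0.30 for PbAcoa, -0.23 for PbAcod and 0.03 for leuB/leu1, none past the limit. It would be 2.78 for CarB, 1.90 for CarRA, -5.85 for WcoA and -9.37 for WctD, all past it. For WctB it would be -5.86 and for PbFumHa -1.43, neither past the limit.

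The 29 genes with a fall in ΔL51 mycelium and a rise in wild type mycelium include PbAcoa, PbAcod and leuB/leu1. Their log2 fold changes had a median of -1.74 (-5.69 to -1.20) in ΔL51 mycelium and 1.97 (0.95 to 5.98) in wild type mycelium in the authors' deposited tables. The 22 genes that rose in both had medians of 2.50 in ΔL51 mycelium and 2.51 in wild type mycelium. CaMK7 is the gene with a symbol among them, and 6 of the 22 differed between strains. PHYBLDRAFT_188804, for one, had 4.47 in ΔL51 mycelium and 4.99 in wild type mycelium in the authors' deposited tables, a difference of -0.53 (-2.08 to 1.03). CarG2 is among the 7 genes that fell in both. The 3 genes that rose in ΔL51 mycelium and fell in wild type mycelium were PHYBLDRAFT_58897, PHYBLDRAFT_104342 and PHYBLDRAFT_145618. They had 2.32, 1.94 and 2.33 in ΔL51 mycelium and -1.44, -3.20 and -1.96 in wild type mycelium in the authors' deposited tables.

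Differences between strains were past the limit for 35 of the 77 genes called higher in ΔL51 mycelium, 34 with a higher and 1 with a lower fold in ΔL51. They were past it for 67 of the 82 called lower, 2 with a higher and 65 with a lower fold. The same ΔL51 folds chose these genes, so these counts describe them and carry no weight of their own. With a t reference of 12 degrees of freedom the counts were 15 of the 77 and 51 of the 82. The largest positive differences were 7.18 for PHYBLDRAFT_71323, 6.79 for PHYBLDRAFT_138080 and 6.02 for PHYBLDRAFT_165447, none of which was past the limit with that t reference, and the call of PHYBLDRAFT_71323 in ΔL51 mycelium was lost after centring. The largest negative ones were -11.67 for PHYBLDRAFT_179633 (-16.0 to -7.31), -8.09 for PHYBLDRAFT_4670 and -6.07 for PHYBLDRAFT_116135.

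**Figure D5:**
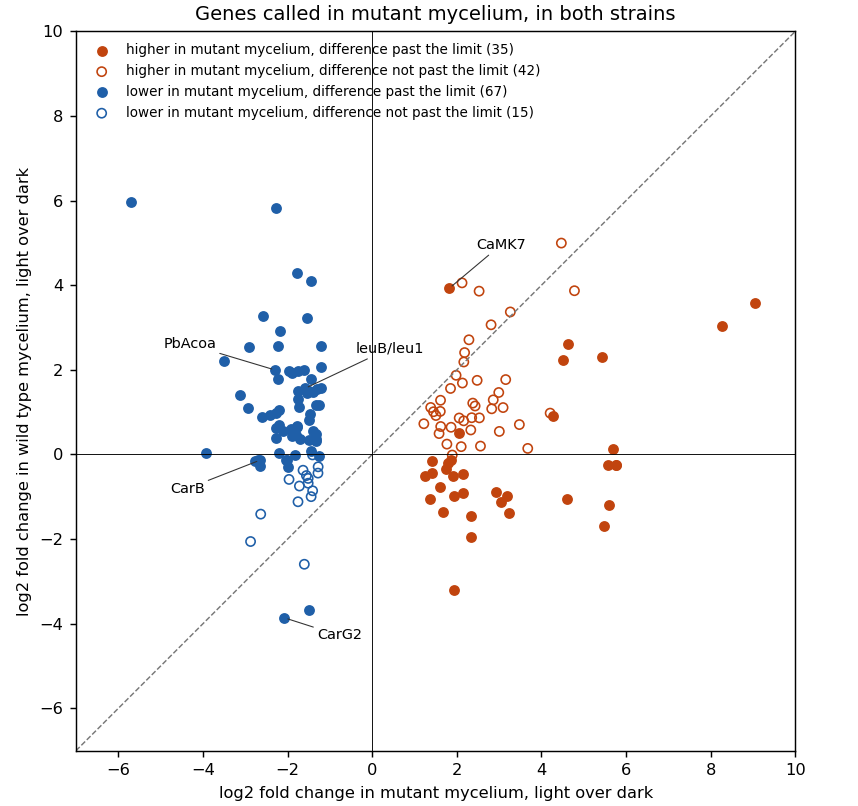
Log2 fold change of light over dark in ΔL51 mycelium (horizontal axis) against that in wild type mycelium (vertical axis) for the 159 genes called in ΔL51 mycelium, from the authors' deposited tables. Orange circles were higher and blue circles lower in light in ΔL51 mycelium, and filled circles mark genes whose difference between strains was past the limit (35 and 67). The dashed line marks equal folds. Most blue circles lie above 0 on the vertical axis, PbAcoa and leuB/leu1 among them, and CaMK7 lies in the upper right.

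The called genes were also looked up in sporangiophores of the same strain. Of the 77 genes higher in light in ΔL51 mycelium 2 (2.60%) were called higher and 24 (31.2%) lower in ΔL51 sporangiophores. Of the 82 genes lower in ΔL51 mycelium 0 were called higher and 9 (11%) lower there, against the backgrounds of 3.31% and 12.3% over all genes. The shares called in the same direction thus lay near the backgrounds. The 31.2% of the rises called lower there lay above the 12.3%. The difference of ΔL51 mycelium minus ΔL51 sporangiophores, tested in the same way over 11430 genes, was past the limit for 1189 genes with a higher fold in mycelium (10.4%) and 170 with a lower fold (1.49%).

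PHYBLDRAFT_124049 rose by 5.43 in ΔL51 mycelium and fell by 3.85 in ΔL51 sporangiophores in the authors' deposited tables, a difference of 9.29. PHYBLDRAFT_160457 rose by 3.15 in ΔL51 mycelium and fell by 4.66 in ΔL51 sporangiophores, a difference of 7.82, in the authors' deposited tables. NDUFA4_3 fell in both structures of the strain, with -2.69 in ΔL51 mycelium and -3.90 in ΔL51 sporangiophores, and it rose by 3.65 in wild type sporangiophores, in the authors' deposited tables. leuB/leu1 also fell in both ΔL51 structures, with -1.59 in ΔL51 mycelium and -1.19 in ΔL51 sporangiophores. CarB, CarRA, CarG2 and PbAcoa were called in ΔL51 mycelium and not in ΔL51 sporangiophores, where they had -0.05, 0.24, 0.68 and -0.08 in the authors' deposited table. As bulk RNA was measured, a change per cell and a change in the share of cells of a kind cannot be told apart in any of these values.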

How the data were processed

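Light and dark RNA sequencing libraries of ΔL51 mycelium were compared by the authors. Bowtie and edgeR were used, per the submitters' processing notes, which give no versions. The sources used here do not state the genome build, annotation, strand setting or counting rule. Per the file headers, the authors' deposited table holds a log2 fold change, an average log2 CPM, a likelihood ratio score, its p-value and the FDR for each gene. It was checked that the deposited p-value follows from the likelihood ratio and a chi-square distribution (1 degree of freedom), and that the FDR is its Benjamini-Hochberg value. The table came from another fit than the other 3: of 14162 genes shared with wild type mycelium 0 had the same log2 CPM. A count test was planned in case counts were given; the planned branch for the authors' own comparison was used, so no gene was retested for the calls.

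For each fold an approximate standard error was taken, namely the size of the fold over the root of its likelihood ratio. Differences between tables were tested with a normal approximation and Benjamini-Hochberg adjustment. The method was run on simulated folds drawn with these same standard errors, so the simulation could not check the errors themselves. The approximation assumes likelihood ratios that follow the chi-square, and it cannot give an error for folds of 0. IDs were matched to numbers of Phybl2 locus tags for 14188 genes, of which 208 have a symbol. With the build not stated, no coordinates or sequences are given, and gene spans are those of Phybl2. Members and lists were chosen with earlier results of these data known. Named genes were every called gene with a symbol, all light sensing and carotene genes, the 10 largest rises and falls among called genes whose log2 CPM reached the median of the table, the 6 lowest FDRs in each direction and the 6 largest differences from wild type mycelium in each direction. Others printed were chosen after their values were seen. Python 3.11.15, pandas 2.3.3, numpy 2.4.6 and scipy 1.17.1 were used.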

Additional observations from a re-analysis of the deposited data

Results flagged for a closer look

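Folds of light over dark differed between ΔL51 mycelium and wild type mycelium, by the approximate test of the difference, for 37 of the 49 named genes, where 14.5% of all tested genes differed. Of the 49, 12 were chosen for the size of this difference. Called genes in ΔL51 mycelium made up 38 of the 49, and the same ΔL51 fold enters the difference. The count is thus largely fixed by the choice of genes, and its excess over 14.5% carries no weight of its own. With the t reference of 12 degrees of freedom 21 of the 37 were past the limit. All values here are ΔL51 minus wild type log2 fold changes. Among genes with a symbol the difference was -11.05 for WctB, -4.70 for WcoA, -4.29 for PbAcoa, -3.85 for WctD, -3.72 for PbAcod, -3.15 for leuB/leu1 and -2.66 for CarRA. It was -2.57 for NDUFA4_3, -2.51 for CarB, -2.19 for carC, -2.11 for CaMK7, -1.67 for PbIdh2c and 1.79 for CarG2. The WctB value rests on a ΔL51 fold that other genes of low log2 CPM repeat, so its size is uncertain.

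Among genes with a lower fold in ΔL51 mycelium and no symbol, the difference was -11.67 for PHYBLDRAFT_179633, -8.09 for PHYBLDRAFT_4670, -6.07 for PHYBLDRAFT_116135 and -5.84 for PHYBLDRAFT_120982. PHYBLDRAFT_108956 differed by -5.72, PHYBLDRAFT_39418 by -5.55, PHYBLDRAFT_189260 by -5.44 and PHYBLDRAFT_121806 by -4.79. Smaller differences were -4.03 for PHYBLDRAFT_153108, -2.89 for PHYBLDRAFT_78835, -2.61 for PHYBLDRAFT_176851 and -2.38 for PHYBLDRAFT_132711. Among those with a higher fold in ΔL51 mycelium it was 7.18 for PHYBLDRAFT_71323, 6.79 for PHYBLDRAFT_138080, 6.02 for PHYBLDRAFT_165447, 6.0 for PHYBLDRAFT_72256 and 5.82 for PHYBLDRAFT_139728. PHYBLDRAFT_182905 differed by 5.65, PHYBLDRAFT_124492 by 5.47, PHYBLDRAFT_157726 by 5.23 and PHYBLDRAFT_180993 by 3.37. PHYBLDRAFT_124049 differed by 3.13, PHYBLDRAFT_157963 by 2.26 and PHYBLDRAFT_30672 by 2.02.

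Between ΔL51 mycelium and ΔL51 sporangiophores, the 4 called genes with the largest differences in each direction were picked after their values were seen. The difference of log2 fold change, mycelium minus sporangiophores, was 11.06 for PHYBLDRAFT_124492, 9.29 for PHYBLDRAFT_124049, 8.28 for PHYBLDRAFT_157726 and 7.82 for PHYBLDRAFT_160457. It was -6.01 for PHYBLDRAFT_179633, -4.60 for PHYBLDRAFT_115329, -3.70 for PHYBLDRAFT_18519 and -3.65 for PHYBLDRAFT_108956.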

How the results depend on the processing

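Calls in ΔL51 mycelium depended on the limit and on the reference distribution. At an FDR limit of 0.01, 24 genes were higher and 40 lower, with 0 left for the alternative NADH dehydrogenases and for leucine synthesis. At a limit of 0.1, 136 were higher, with 2 kinases, 1 two-component gene and 1 respiratory gene (INH1) higher. Respiratory genes also had 1 higher when genes under the median log2 CPM were left out. The likelihood ratio referred to F with 12 degrees of freedom gave 8 higher and 2 lower, and with 4 it gave 0 and 0, leaving 0 calls in every list under both. F with 16 degrees of freedom, chosen after seeing the data, gave 9 higher and 12 lower, with 1 carotene gene (CarB), 1 tricarboxylic acid cycle gene (PbAcoa) and 0 in the other lists. A fold limit of 1 on the log2 scale changed no count.

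For differences from wild type mycelium, 737 genes were higher in ΔL51 after centring. At a limit of 0.01 there were 186 higher and 591 lower. A t reference with 4 degrees of freedom gave 0 and 0, and with 12, chosen after seeing the data, 78 and 408. Turning the direction of the ΔL51 mycelium table round, also added after seeing the data, gave 195 and 691. For differences from ΔL51 sporangiophores the limit of 0.01 gave 56 lower, the t reference with 4 degrees of freedom 0 and 0, and that with 12 gave 698 higher and 43 lower. Of the 49 named genes, 1 call in ΔL51 mycelium (PHYBLDRAFT_71323) and 1 difference from wild type mycelium (PbIdh2c) were lost after centring. Turning the direction of the table reversed every ΔL51 mycelium fold other than 0. It also reversed the sign of many differences from wild type mycelium. CarB, CarRA, NDUFA4_3, PbIdh2c, PHYBLDRAFT_124492, PHYBLDRAFT_157726 and PHYBLDRAFT_180993 were among those reversed, while WcoA, WctD and others kept their sign. No named gene changed direction under the other alternatives. After centring, 137 of the 155 called genes were among those called in the deposited table.

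No paired analysis was possible because values per library were not analysed here, and the replicate block and leaving out each replicate in turn were therefore not run. Depth is unknown, so what it limits cannot be given.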

Other observations

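Besides CarRA and CarB, adjacent called genes in Phybl2 were PHYBLDRAFT_63013 and PHYBLDRAFT_180225, both higher in light in ΔL51 mycelium, with log2 fold changes of 2.15 and 1.41 in the authors' deposited table. Neither was called in wild type mycelium, where they had -0.90 and -0.44 in the authors' deposited table. The remaining pair went opposite ways. PHYBLDRAFT_181579 fell by 1.5 in ΔL51 mycelium and by 3.67 in wild type mycelium, while its neighbour PHYBLDRAFT_112938 rose by 1.85 in ΔL51 mycelium and by 1.56 in wild type mycelium, in the authors' deposited tables.

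The called genes of ΔL51 mycelium were also looked up in wild type sporangiophores. Of the 77 called higher 14 (18.2%) were called higher and 0 lower there, and of the 82 called lower 2 (2.44%) were called higher and 1 (1.22%) lower. In that comparison the authors' deposited table has 1042 of 14410 genes called higher and 170 called lower.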
